A study of Mus musculus with 12 samples.

Results

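The genes described here are those of the fibroblast growth factor (FGF) pathway from ligand to feedback, 45 of the 55487 genes in the expression table. They were chosen by gene name, with earlier results of these data known: the numbered Fgf, Fgfr, Fgfbp, Spry and Spred genes and Fgfrl1, together with Klb, Frs2, Frs3, the phosphatases Dusp4, Dusp5 and Dusp6 and the transcription factors Etv1, Etv4 and Etv5. Il17rd, another feedback inhibitor, was left out. By role they comprised 18 secreted ligands, 4 intracellular FGF homologous factors, 5 receptors, 5 adaptors, binding proteins and coreceptors, and 13 feedback inhibitors and ETS targets. Of the 45 genes, 33 had at least 1 TPM (transcript abundance scaled for length and library size) in at least 3 of the 12 libraries and were tested, among 16016 genes tested in all.

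FGF ligands bind receptor tyrosine kinases together with heparan sulfate chains on the cell surface, and the activated receptors pass the signal through the FRS2 adaptors to RAS, MEK and ERK. ERK switches on ETS transcription factors of the Etv1, Etv4 and Etv5 group, and with them genes that damp the pathway: Sprouty and Spred proteins restrain the steps between receptor, RAS and RAF, and dual-specificity phosphatases remove phosphate from ERK. The transcripts of these feedback genes are widely used as readouts of FGF activity. In the inner ear, FGF signals are known for inducing the otic placode and for patterning the sensory epithelium, and basic FGF (bFGF, the protein of Fgf2) is a common mitogen in neural sphere cultures.

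RNA-seq of poly(A) RNA covered 12 libraries of cultured cells from the modiolus, the core of the cochlea, of postnatal day 4 mice of mixed C57Bl6 and FVB/N background, with tissue of 6 to 8 mice dissected for a culture. There were 3 libraries each of spheres and of cells kept for 14 days in one of the media SCDM, SCDM/FGF or FIBCL, and the comparisons ask how the medium changes these cells. Spheres grew for 5 to 7 days with bFGF at 10 ng/ml, EGF at 20 ng/ml, IGF at 50 ng/ml and heparan sulfate at 50 ng/ml. SCDM, the differentiation medium, held BDNF (50 ng/ml) and NT3 (50 ng/ml), and no bFGF is listed for it. SCDM/FGF was SCDM with bFGF at 100 ng/ml, so the SCDM/FGF and SCDM groups differed, as labelled, in bFGF alone. The sphere medium, SCDM and SCDM/FGF were based on DMEM/F12 with B27 and N2. FIBCL was Neurobasal medium with B27, N2 and bFGF, which the labels list at 50 and again at 100 ng/ml, plus forskolin (20 μM, an activator of adenylyl cyclase), ISX9 (20 μM), I-BET (1 μM, a bromodomain inhibitor), CHIR99021 (10 μM, an inhibitor of GSK3) and LIF (1000 U/ml). The expression table heads these columns FIBC, a name the study also uses where LIF is absent. As the sample labels hold no group of that name, the columns were read as FIBCL. No BDNF or NT3 is listed for FIBCL, so base medium, neurotrophins and small molecules differed together between FIBCL and SCDM or SCDM/FGF, and base medium, growth factors and small molecules between FIBCL and the spheres. Spheres grew in suspension and the other cells on a coated surface, so growth factors, time and culture form cannot be told apart in a comparison with the spheres. The labels call the libraries of a group biological replicates without naming separate cultures or animals, so p-values measure the spread between these libraries, which may be technical.

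Over all listed genes TPM totalled 899295 to 911076 in a FIBCL library and 982067 to 994845 in a library of the other groups, and 21625 to 22281 genes were above 0 in a library. Read numbers cannot be had from TPM, and the depth is therefore unknown. Summed over 10 glial markers, the level was 713 to 715 TPM in spheres, 216 to 249 TPM in SCDM, 203 to 229 TPM in SCDM/FGF and 14.1 to 19.9 TPM in FIBCL. Summed over 10 neuronal markers, it was 18.6 to 19.7, 19.4 to 22.9, 19.3 to 27.2 and 369 to 407 TPM in the same order, and in SCDM/FGF the neuronal markers Rbfox3 and Dcx were listed at 0. Markers of mesenchyme (8 genes) summed to 2967 to 3144 TPM in the spheres, 6045 to 6413 TPM in SCDM, 5388 to 5606 TPM in SCDM/FGF and 46.4 to 51.9 TPM in FIBCL, so the cultures labelled as glial held a high level of mesenchymal transcripts. Not all 8 moved with the sum between the spheres and SCDM, as given below. Markers of dividing cells (4 genes) summed to 65.0 to 67.6 TPM in the spheres, 152 to 171 TPM in SCDM, 113 to 170.4 TPM in SCDM/FGF and 0.73 to 1.12 TPM in FIBCL. In bulk libraries, fewer cells of a type and less RNA per cell cannot be told apart.

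Differences were taken between groups on the log2(scaled TPM + 1) scale, which understates the change of genes near or under 1 TPM, and are given ± the standard error of the limma model. A gene was called higher or lower at a Benjamini-Hochberg adjusted p under 0.05 over all 16016 genes together with a log2 difference of at least 1 in size. The levels of single libraries are the deposited TPM, which are scaled for transcript length.

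With bFGF added to SCDM, 15 of the 33 tested genes rose and 4 fell, against 5.73% and 4.04% of all genes tested (9.77% in either direction). The median log2 difference of the 33 was 0.78, beside -0.02 for all genes. At a limit of 1.5 in place of 1 on the log2 difference, 8 were called, beside 4.85% of all genes. Of the 13 feedback inhibitors and ETS targets, 12 rose and 0 fell (median 1.48), and Spred2, the remaining one, had a log2 difference of 0.88 ± 0.06 (adjusted p = 7.14e-07 by limma). The other risers were the ligands Fgf7 and Fgf10 and the intracellular factor Fgf11. The genes that fell were the ligands Fgf5, Fgf18 and Fgf21 and the receptor Fgfr3. Of the genes counted, Fgf10 and Fgf21 passed the filter only through the group in which they were high. Markers of endothelium (4 genes, of which 3 had means under 1 TPM in SCDM/FGF) summed to 3.90 to 4.49 TPM in SCDM and 35.7 to 39.7 TPM in SCDM/FGF. Of these 4 markers, 1 was called higher and 0 lower with bFGF, with a median log2 difference of 0.16. Their part in the results was not tested. Markers of epithelium (4 genes, of which 3 had means under 1 TPM in each of the 2 media) summed to 9.36 to 10.4 TPM in SCDM and 2.25 to 2.83 TPM in SCDM/FGF. The lower sum hides a split, since 1 of the 4 was called higher and 1 lower with bFGF (median log2 difference 0.26). The part of the epithelial markers was not tested either.

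In FIBCL, 9 of the 33 genes were higher and 5 lower than in SCDM, where 13.2% and 16.2% of all genes were called (29.3% in either direction). Against SCDM/FGF, 6 were higher and 9 lower, where 12% and 15.8% of all genes were (27.8% in either direction), and 4 were higher and 10 lower when the deposited values were not rescaled. The medians of the 33 were 0.24 and -0.27, beside -0.07 and -0.05 for all genes. By adjusted p alone 23 and 28 of the 33 differed, where 71.7% and 70.7% of all genes did, and at a limit of 1.5 it was 11 and 8, where 17.9% and 16.8% of all genes were called. Fgfr2 rose in both comparisons and Fgf5 and Fgf7 fell in both. The feedback genes split: 7 of the 13 were higher and 1 lower than in SCDM, and 2 were higher and 4 lower than in SCDM/FGF. Against SCDM, 9 of the 10 glial markers and all 8 mesenchymal markers were also lower in FIBCL and all 7 tested neuronal markers higher, and the part of these shifts in the results was not tested.

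Set against the spheres, SCDM had 4 of the 33 genes higher and 7 lower (6.94% and 5.46% of all genes, 12.4% in either direction), and SCDM/FGF had 5 higher and 3 lower (7.39% and 4.73%, 12.1% in either direction). FIBCL had 9 higher and 8 lower (12.5% and 15.5%, 28.1% in either direction). Without rescaling, the counts were 3 higher and 3 lower for SCDM/FGF and 4 higher and 11 lower for FIBCL. The medians of the 33 genes were -0.54 for SCDM, 0.46 for SCDM/FGF and -0.12 for FIBCL, beside -0.01, -0.02 and -0.06 for all genes. By adjusted p alone 29, 24 and 27 of the 33 differed, where 50.3%, 50.4% and 71.6% of all genes did, and at a limit of 1.5 it was 5, 5 and 8, where 6.18%, 6.04% and 15.9% of all genes were called. Macrophage markers (7 genes) summed to 92.3 to 107 TPM in the spheres, 1009.6 to 1080.4 TPM in SCDM, 936 to 1085 TPM in SCDM/FGF and 131 to 149 TPM in FIBCL. The sum hides a split in FIBCL, where 4 of the 7 had means under 1 TPM. Against the spheres, 1 of the 7 was called higher in FIBCL and 4 lower (median log2 difference -1.57). The mesenchymal sum hides a split too. In SCDM against the spheres, 3 of the 8 mesenchymal markers were called higher and 2 lower (median log2 difference -0.37). In SCDM/FGF, 2 were called higher and 1 lower (median 0.62). The part of the macrophage and mesenchymal markers in the differences was not tested. The 6 comparisons share groups, so their counts are not independent of each other. Among the 33 genes, Fgf10 and Fgf21 reached 1 TPM in the libraries of 1 group only, so that passing the filter already set them apart there.

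**Figure D1:**
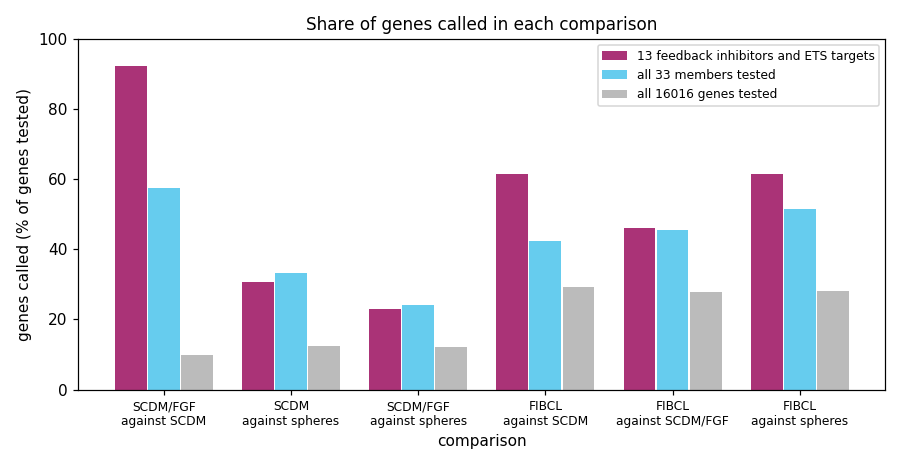
Share of genes called in each of the 6 comparisons (vertical axis, % of genes tested), for the 13 feedback inhibitors and ETS targets, all 33 tested FGF pathway genes and all 16016 genes tested. In SCDM/FGF against SCDM the shares are 92.3%, 57.6% and 9.77%, and in FIBCL against SCDM they are 61.5%, 42.4% and 29.3%.

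**Figure D2:**
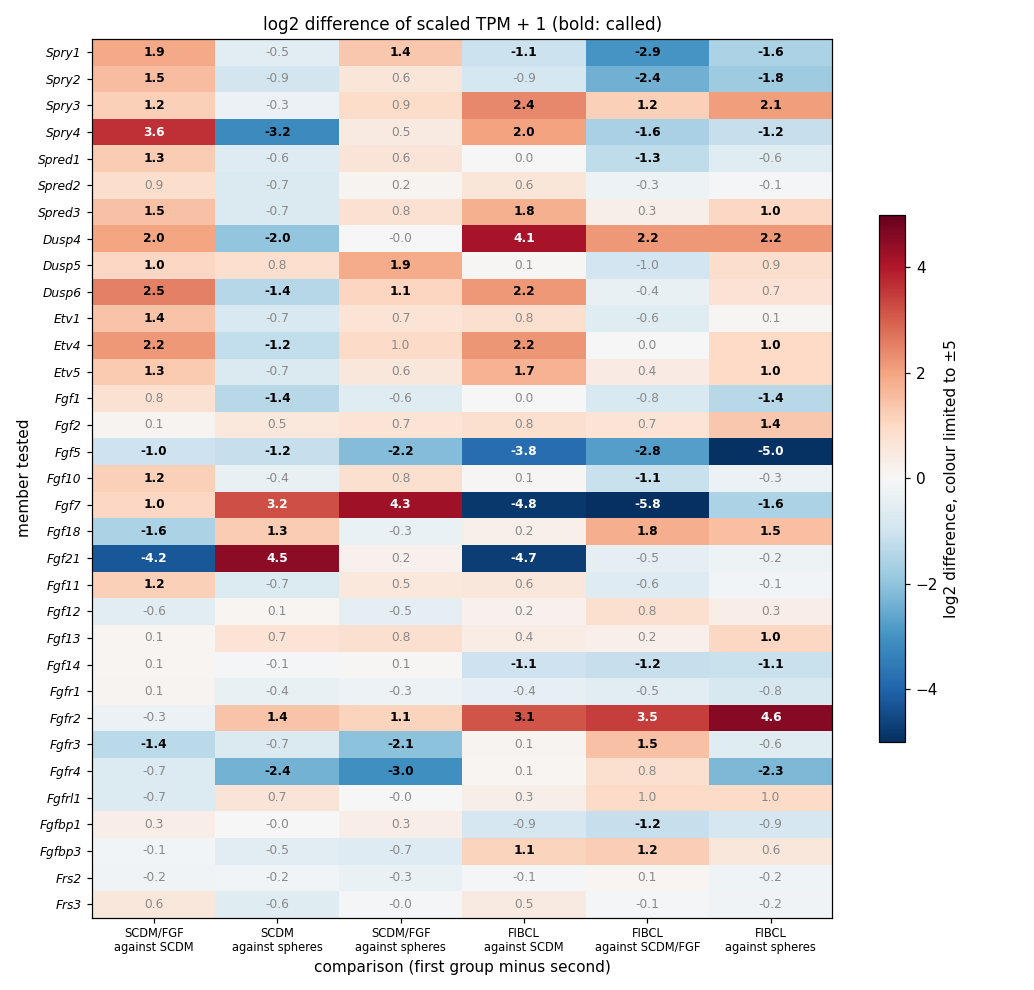
Log2 difference of scaled TPM + 1 for the 33 tested FGF pathway genes (rows, by role) in the 6 comparisons (columns, first group minus second), in red where the first group is higher and in blue where it is lower, with called values in bold. The upper 13 rows, Spry1 to Etv5, are red throughout the SCDM/FGF against SCDM column, and the Fgfr2 row reads 3.14, 3.45 and 4.55 (rounded in the picture) in the 3 FIBCL columns.

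Of the 18 secreted ligands, 7 passed the filter on low values. The dominant ligand transcript differed between the media. Among the 18, the highest mean level was that of Fgf5 in the spheres (51.3 ± 1.6 TPM, SD, n = 3), of Fgf7 in SCDM (65.3 ± 3.03 TPM) and SCDM/FGF (126 ± 4.08 TPM), and of Fgf2 in FIBCL (27.3 ± 2.77 TPM). The plot of ligand levels shows each library. Library values, and statements on order and overlap of groups, are those of deposited TPM, whereas the tests used TPM rescaled between libraries. Over the 33 genes and 6 pairs of groups, overlap or order was the same after rescaling for 170 of 198 pairs, and the exceptions among the statements made are given beside them.

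**Figure D3:**
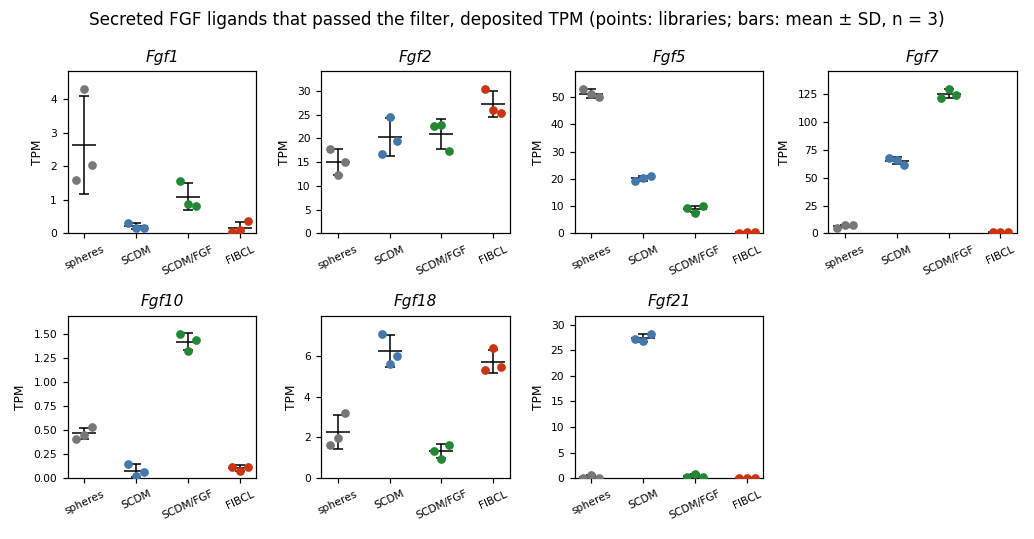
Deposited TPM (vertical axis) of the 7 secreted FGF ligands that passed the filter, by group, with 1 point a library and bars for the mean ± SD (n = 3). Fgf21 stands at 26.7 to 28.2 TPM in SCDM and under 1 TPM in the other groups, and Fgf7 runs from about 1 TPM in FIBCL to 122 to 130.1 TPM in SCDM/FGF.

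Fgf7 (chr2:126034658-126091185, + strand, GRCm38), the keratinocyte growth factor that mesenchymal cells release toward epithelia, was at 5.27, 7.19 and 7.53 TPM in the spheres, 67.9, 65.9 and 62 TPM in SCDM, 122, 130.1 and 124 TPM in SCDM/FGF and 0.99, 1.01 and 0.9 TPM in FIBCL. The groups did not overlap, and the order was FIBCL, spheres, SCDM and SCDM/FGF from low to high. Fgf7 rose by 1.02 ± 0.10 on the log2 scale with bFGF (adjusted p = 8.56e-06), a value that was 0.98 without SCDM replicate 3, 0.99 without SCDM/FGF replicate 2 and 0.93 without rescaling, each under the limit of 1. It was higher in SCDM than in the spheres by 3.24 ± 0.10 (adjusted p = 8.1e-10) and lower in FIBCL than in SCDM, with a difference of -4.83 ± 0.10 (adjusted p = 6.59e-12). Fgf10, its close relative in the same subfamily, was at 0.41, 0.45 and 0.53 TPM in the spheres, 0.15, 0.02 and 0.06 TPM in SCDM, 1.5, 1.32 and 1.43 TPM in SCDM/FGF and 0.12, 0.07 and 0.12 TPM in FIBCL. SCDM/FGF alone exceeded 1 TPM, so Fgf10 passed the filter through that group only. The log2 difference of SCDM/FGF from SCDM was 1.17 ± 0.09 (adjusted p = 1.28e-06 by limma), which is no separate support for the higher level there. FIBCL lay below SCDM/FGF for Fgf10 too, with a difference of -1.10 ± 0.09. The 8 mesenchymal markers, of which all 8 fell in FIBCL against SCDM, moved with Fgf7 in that comparison, and their part in the result was not tested. In SCDM/FGF against SCDM, 3 of these 8 markers rose and 2 fell, and their summed level was lower in SCDM/FGF, as given above.

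Fgf5 (chr5:98254184-98277030, + strand), a ligand known in the hair follicle for ending the growth phase, was at 53, 51 and 49.9 TPM in the spheres, 19.3, 20.2 and 21.2 TPM in SCDM, 9.27, 7.55 and 9.93 TPM in SCDM/FGF and 0.17, 0.38 and 0.55 TPM in FIBCL. Its levels fell in steps without overlap from the spheres through SCDM and SCDM/FGF to FIBCL. Fgf5 fell with bFGF, at a log2 difference of -1.03 ± 0.13 (adjusted p = 5.03e-05), which was -0.99 without SCDM replicate 3 and -0.93 without SCDM/FGF replicate 2. Relative to the spheres it was lower in the other groups, with log2 differences of -1.16 ± 0.13 for SCDM, -2.18 ± 0.13 for SCDM/FGF and -4.95 ± 0.13 for FIBCL (adjusted p = 1.62e-05, 9.77e-08 and 3.24e-11). Relative to SCDM, the difference in FIBCL was -3.79 ± 0.13 (adjusted p = 2.32e-10).

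Fgf21 (chr7:45613886-45615490, - strand), a hormone-like ligand of liver and fat whose transcription is a known target of the integrated stress response, was at 0.1, 0.62 and 0.11 TPM in the spheres, 27.1, 26.7 and 28.2 TPM in SCDM, 0.31, 0.88 and 0.18 TPM in SCDM/FGF and 0.09, 0 and 0 TPM in FIBCL. SCDM stood apart from the other groups, in which no library reached 1 TPM. Fgf21 thus passed the filter through SCDM alone, and the adjusted p-values that follow are no separate support for its higher level there. Fgf21 was lower in SCDM/FGF than in SCDM, at a log2 difference of -4.23 ± 0.18 (adjusted p = 8.28e-09), and lower in FIBCL, at -4.70 ± 0.18 (adjusted p = 7.96e-10). It was higher in SCDM than in the spheres, by 4.45 ± 0.18 (adjusted p = 5.8e-09). Klb, the coreceptor through which FGF21 acts, did not pass the filter and reached at most 0.18 TPM in any library.

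The Fgf21 promoter is shown because a short element of stress-response promoters, TGATGNAA (called CARE, the C/EBP and ATF response element, searched on both strands), lay in it. The 250 bases before the RefSeq start site (GRCm38.p6, chr7:45615491-45615740, - strand) are given 5′ to 3′ with the match in capitals, where it reads as the reverse complement. Of the 32851 RefSeq promoter windows of this length, 3.45% held the element, and of the 34 FGF pathway genes with a window Fgf21 was the 1 gene that did. The match is a description of the sequence and not evidence of a bound factor.
Fgf21: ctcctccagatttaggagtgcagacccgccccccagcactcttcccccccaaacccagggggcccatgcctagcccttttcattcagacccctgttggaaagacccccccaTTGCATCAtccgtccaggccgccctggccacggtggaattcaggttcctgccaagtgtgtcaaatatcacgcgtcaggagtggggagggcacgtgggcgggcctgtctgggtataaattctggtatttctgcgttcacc

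Fgf18, a ligand known in bone, cartilage and lung growth, was at 1.63, 1.97 and 3.2 TPM in the spheres, 7.1, 5.61 and 6.01 TPM in SCDM, 1.34, 0.96 and 1.65 TPM in SCDM/FGF and 5.32, 6.38 and 5.48 TPM in FIBCL. SCDM and FIBCL lay above SCDM/FGF and the spheres without overlap. Fgf18 fell with bFGF, at a log2 difference of -1.58 ± 0.17 (adjusted p = 1.8e-05), and was higher in FIBCL than in SCDM/FGF by 1.82 ± 0.17 (adjusted p = 1.91e-06). Between FIBCL and SCDM the difference was 0.24 ± 0.17 (adjusted p = 0.226).

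Fgf2, the transcript of the same factor that was added as protein, was at 17.8, 12.2 and 14.9 TPM in the spheres, 16.8, 24.5 and 19.5 TPM in SCDM, 22.6, 22.9 and 17.4 TPM in SCDM/FGF and 30.4, 26 and 25.3 TPM in FIBCL. The SCDM and SCDM/FGF libraries overlapped, and the log2 difference between them was 0.13 ± 0.15 (adjusted p = 0.518). FIBCL lay above the spheres by 1.35 ± 0.15 (adjusted p = 6.6e-06), and by 0.83 when the values were not rescaled. Fgf1, the acidic FGF, was at 1.58, 4.31 and 2.05 TPM in the spheres, 0.32, 0.17 and 0.17 TPM in SCDM, 1.56, 0.88 and 0.83 TPM in SCDM/FGF and 0.05, 0.09 and 0.38 TPM in FIBCL. Its sphere libraries, of which replicate 2 was the highest, exceeded all SCDM and FIBCL libraries. Fgf1 was lower in SCDM than in the spheres, at -1.37 ± 0.25 (adjusted p = 0.000723), and lower in FIBCL than in the spheres, at -1.37 ± 0.25 (adjusted p = 0.000401), while the SCDM/FGF value against SCDM was 0.78 ± 0.25 (adjusted p = 0.0253), under the size limit.

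The other 11 secreted ligands (Fgf3, Fgf4, Fgf6, Fgf8, Fgf9, Fgf15, Fgf16, Fgf17, Fgf20, Fgf22 and Fgf23) were not tested, and none of their values reached 1 TPM. Fgf4 and Fgf20 were listed at 0 in every library. Fgf3, a ligand of otic placode induction, was at 0.87, 0.53 and 0.16 TPM in FIBCL and listed at 0 in the other 9 libraries, and Fgf8, a ligand of the inner hair cells and of the midbrain organizer, was at 0.33, 0.23 and 0.14 TPM in FIBCL and listed at 0 in the same 9. At such levels no fold was computed. Fgf9 peaked at 0.75 TPM, in an SCDM library, and the other 6 at 0.4 TPM or less.

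The 4 FGF homologous factors stay inside the cell, do not act on FGF receptors and are known to bind voltage-gated sodium channels. Fgf11 was at 12.2, 9.51 and 10.5 TPM in the spheres, 6.23, 4.97 and 5.74 TPM in SCDM, 13.8, 15.2 and 11.7 TPM in SCDM/FGF and 7.18, 6.56 and 6.25 TPM in FIBCL. SCDM/FGF and the spheres, which overlapped, lay above SCDM and FIBCL, but after rescaling SCDM/FGF lay above the spheres and the spheres overlapped FIBCL. Fgf11 rose with bFGF by 1.20 ± 0.11 (adjusted p = 4.5e-06). Fgf14, whose product sits at the axon initial segment of neurons, was at 1.41, 1.31 and 1.82 TPM in the spheres, 1.48, 1.19 and 1.14 TPM in SCDM, 1.27, 1.55 and 1.31 TPM in SCDM/FGF and 0.08, 0 and 0.06 TPM in FIBCL. It was lower in FIBCL than in SCDM (-1.05 ± 0.11, adjusted p = 4.27e-06), SCDM/FGF (-1.17 ± 0.11, adjusted p = 1.85e-06) and the spheres (-1.11 ± 0.11, adjusted p = 2.89e-06), and the difference from SCDM was -0.99 without SCDM replicate 1. The fall in Fgf14 stood beside the higher neuronal marker sum of FIBCL.

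Fgf13, which also binds microtubules, was at 0.48, 0.52 and 0.77 TPM in the spheres, 1.82, 0.77 and 2.12 TPM in SCDM, 2.12, 0.93 and 1.96 TPM in SCDM/FGF and 2.04, 1.11 and 2.03 TPM in FIBCL. In SCDM, SCDM/FGF and FIBCL replicate 2 was below the other libraries of its group, and all sphere libraries were below 1 TPM. FIBCL exceeded the spheres by 1.05 ± 0.25 (adjusted p = 0.00277), which was 0.97 without FIBCL replicate 1, 0.93 without FIBCL replicate 3 and 0.76 without rescaling. Fgf12 was at 1.91, 2.07 and 2.6 TPM in the spheres, 2.08, 2.46 and 2.12 TPM in SCDM, 0.75, 1.62 and 0.93 TPM in SCDM/FGF and 1.96, 2.81 and 1.6 TPM in FIBCL, and it was called in none of the 6 comparisons. Its largest log2 difference was 0.79 ± 0.17, between FIBCL and SCDM/FGF (adjusted p = 0.00168).

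The receptor transcripts differed in level between the media. By deposited TPM, Fgfr1 and Fgfr2 were the abundant transcripts, with Fgfr1 the higher of the pair in the spheres and Fgfr2 far the higher in FIBCL. The Fgfr2 level, and with it the ratio to Fgfr1, is uncertain because some annotated Fgfr2 exons overlap those of another gene, as given below. The ratio of Fgfr2 to Fgfr1 TPM was 0.297 to 0.525 in the spheres, 1.38 to 1.66 in SCDM, 0.861 to 1.56 in SCDM/FGF and 14.7 to 23.7 in FIBCL. Of the 5 receptors, 1 rose (Fgfr2) and 0 fell in FIBCL against SCDM, where 13.2% of all genes rose and 16.2% fell. In SCDM/FGF against SCDM, 0 rose and 1 fell (Fgfr3), where 5.73% of all genes rose and 4.04% fell.

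**Figure D4:**
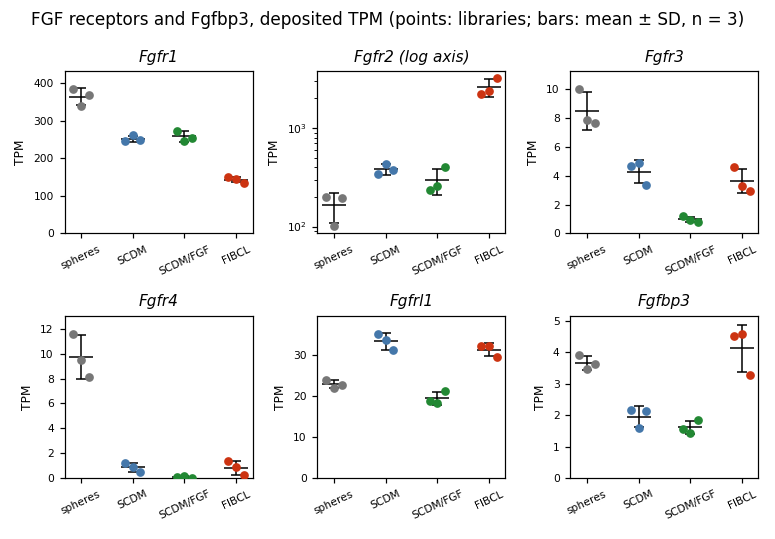
Deposited TPM (vertical axis, on a log scale for Fgfr2) of the 5 FGF receptor genes and of the carrier Fgfbp3, by group, with 1 point a library and bars for the mean ± SD (n = 3). Fgfr2 stands at 2206 to 3207 TPM in FIBCL and at 435 TPM or less in the other 9 libraries, and Fgfr3 and Fgfr4 are highest in the spheres.

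Fgfr2 (chr7:130162451-133123350, - strand), a receptor with splice forms that differ in ligand choice, was at 200.1, 101 and 193 TPM in the spheres, 341, 435 and 371 TPM in SCDM, 236, 257 and 398 TPM in SCDM/FGF and 2206, 2351 and 3207 TPM in FIBCL. FIBCL lay above all other libraries, and there Fgfr2 ranked 31 to 38 among all genes of a library and made up 0.242% to 0.357% of the listed TPM. In the spheres it ranked 651 to 1426. The log2 difference of FIBCL was 3.14 ± 0.27 from SCDM (adjusted p = 9e-07), 3.45 ± 0.27 from SCDM/FGF (adjusted p = 4.22e-07) and 4.55 ± 0.27 from the spheres (adjusted p = 3.91e-08). With bFGF alone the groups overlapped, and the difference was -0.31 ± 0.27 (adjusted p = 0.402).

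Fgfr2 was also higher in SCDM than in the spheres, by 1.41 ± 0.27 (adjusted p = 0.00124). Its difference between SCDM/FGF and the spheres was 1.10 ± 0.27 (adjusted p = 0.00606), which was 0.80 without sphere replicate 2, 0.86 without SCDM/FGF replicate 3 and 0.87 without rescaling. GENCODE M21 lists 27 transcripts of Fgfr2, of 335 to 4429 bases. One of them, with 7 exons, has 2 exons that overlap exons of Ctbp2 on the same strand. Reads there could be assigned to either gene, and the Fgfr2 level is uncertain to that extent. The other transcripts were not checked for such overlap, and the transcript from which the Fgfr2 reads came is not known. Ctbp2 itself was at 15.6 to 20.3 TPM in FIBCL and at 28.4 to 40.05 TPM in the other groups. These values do not show how many shared reads were assigned to Fgfr2, and this was not tested.

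Fgfr1, the receptor most tied to bFGF signalling in neural cells, was at 386, 341 and 368 TPM in the spheres, 246, 261 and 248 TPM in SCDM, 274, 248 and 254 TPM in SCDM/FGF and 150.2, 144 and 136 TPM in FIBCL. The spheres were highest and FIBCL lowest, while SCDM and SCDM/FGF overlapped, with SCDM/FGF above SCDM after rescaling. No comparison called Fgfr1, and its largest log2 difference was -0.80 ± 0.04, for FIBCL against the spheres (adjusted p = 1.05e-08). The difference with bFGF was 0.12 ± 0.04 (adjusted p = 0.0325).

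Fgfr3, a receptor known in cochlear pillar and Deiters' cells and in glial precursors, was at 10.02, 7.83 and 7.63 TPM in the spheres, 4.67, 4.85 and 3.34 TPM in SCDM, 1.18, 0.93 and 0.79 TPM in SCDM/FGF and 4.58, 3.3 and 2.97 TPM in FIBCL. SCDM/FGF lay below the other groups without overlap and the spheres above them. Fgfr3 fell with bFGF, at -1.35 ± 0.15 (adjusted p = 2.68e-05), and was higher in FIBCL than in SCDM/FGF by 1.47 ± 0.15 (adjusted p = 4.84e-06). Against the spheres, SCDM/FGF was lower, at -2.06 ± 0.15 (adjusted p = 7.46e-07).

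Fgfr4 was at 11.6, 9.5 and 8.14 TPM in the spheres, 1.24, 0.89 and 0.47 TPM in SCDM, 0.12, 0.2 and 0.04 TPM in SCDM/FGF and 1.4, 0.86 and 0.24 TPM in FIBCL. The spheres were well above the rest, and SCDM and FIBCL overlapped. Fgfr4 was lower than in the spheres in SCDM (-2.37 ± 0.24, adjusted p = 8.87e-06), SCDM/FGF (-3.05 ± 0.24, adjusted p = 1.17e-06) and FIBCL (-2.26 ± 0.24, adjusted p = 5.74e-06). The glial marker sum was likewise highest in the spheres, and its part in the result was not tested. Fgfrl1, a receptor-like protein without a kinase domain, was at 23.7, 21.9 and 22.7 TPM in the spheres, 35.1, 33.4 and 31.1 TPM in SCDM, 18.7, 18.2 and 21.1 TPM in SCDM/FGF and 32, 32.2 and 29.4 TPM in FIBCL. SCDM and FIBCL overlapped and exceeded SCDM/FGF and the spheres, and after rescaling FIBCL lay above SCDM, but no comparison called it, and its largest difference was 0.97 ± 0.07, for FIBCL against SCDM/FGF (adjusted p = 1.33e-07).

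Around the receptors, the extracellular carrier Fgfbp3, which frees FGFs from heparan sulfate, was at 3.91, 3.46 and 3.63 TPM in the spheres, 2.16, 1.58 and 2.12 TPM in SCDM, 1.56, 1.43 and 1.84 TPM in SCDM/FGF and 4.52, 4.59 and 3.26 TPM in FIBCL. FIBCL and the spheres lay above SCDM and SCDM/FGF. Fgfbp3 was higher in FIBCL than in SCDM by 1.10 ± 0.12 (adjusted p = 7.48e-06) and than in SCDM/FGF by 1.22 ± 0.12 (adjusted p = 3.27e-06), values that were 0.79 and 0.97 without rescaling. Fgfbp1, the other carrier, was at 1.11, 0.72 and 1.33 TPM in the spheres, 0.84, 1.08 and 0.88 TPM in SCDM, 1.49, 1.6 and 0.99 TPM in SCDM/FGF and 0, 0.07 and 0.03 TPM in FIBCL. FIBCL was lowest, and the difference from SCDM/FGF was -1.17 ± 0.13 (adjusted p = 8.94e-06). The docking adaptors Frs2 (11.95 to 22.3 TPM) and Frs3 (3.19 to 7.18 TPM) were called in none of the comparisons.

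Of the 13 feedback genes, 12 were called higher in SCDM/FGF than in SCDM, where 5.73% of all genes were. In the plot of feedback genes, SCDM has the lowest mean for 9 of the 13 (not for Spry1, Spry2, Spred1 and Dusp5; for 10 after rescaling, Spred1 added), and each of the 3 SCDM/FGF libraries exceeded each SCDM library for all 13, on either scale. The shares of all genes whose mean is lowest in SCDM, or whose libraries separate in this way, were not counted. Neither count of the 13 can therefore be weighed against all genes. The adjusted p was under 0.05 for all 13 in SCDM/FGF against SCDM, a rule by which 43.1% of all genes passed. The list was chosen as known ERK responders.

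**Figure D5:**
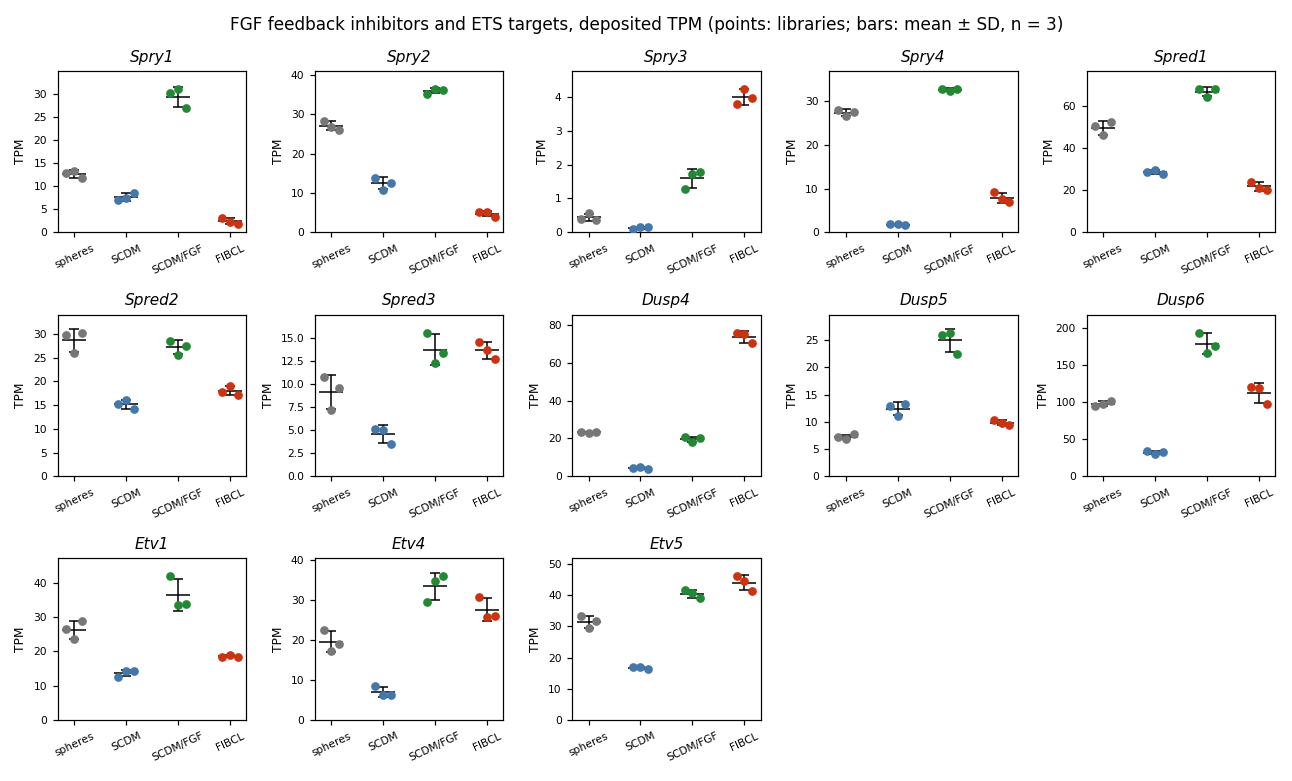
Deposited TPM (vertical axis) of the 13 feedback inhibitors and ETS targets by group, with 1 point a library and bars for the mean ± SD (n = 3). Every SCDM/FGF library lies above every SCDM library in all 13 panels, a separation that was not counted over all genes. Dusp4, Spry3 and Etv5 have their highest means in FIBCL (after rescaling, Etv4 and Spred3 as well).

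The 4 Sprouty genes encode inhibitors that receptor tyrosine kinases induce and that act between the receptor and RAF. Spry4 was at 28.1, 26.5 and 27.6 TPM in the spheres, 1.88, 1.88 and 1.66 TPM in SCDM, 32.8, 32.3 and 32.8 TPM in SCDM/FGF and 9.17, 7.7 and 6.98 TPM in FIBCL. SCDM was lowest and SCDM/FGF highest, with no overlap between any of the groups. Spry4 had the widest bFGF response of the 33 genes in the upward direction, 3.64 ± 0.07 (adjusted p = 3.64e-11), and was also lower in SCDM than in the spheres, at -3.17 ± 0.07 (adjusted p = 1.17e-10). FIBCL was between, above SCDM by 2.00 ± 0.07 (adjusted p = 3.67e-10) and below SCDM/FGF at -1.63 ± 0.07 (adjusted p = 2.15e-09).

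Spry1 was at 12.9, 13.3 and 11.7 TPM in the spheres, 6.99, 7.43 and 8.57 TPM in SCDM, 30.1, 31.1 and 26.9 TPM in SCDM/FGF and 3.15, 2.32 and 1.79 TPM in FIBCL. Spry2 was at 28.3, 26.8 and 26.1 TPM in the spheres, 13.9, 10.8 and 12.6 TPM in SCDM, 35.2, 36.4 and 36.1 TPM in SCDM/FGF and 5.26, 5.13 and 4 TPM in FIBCL. For both genes the 4 groups did not overlap, with SCDM/FGF highest, then the spheres, SCDM and FIBCL. With bFGF, Spry1 rose by 1.89 ± 0.13 (adjusted p = 2.95e-07) and Spry2 by 1.54 ± 0.09 (adjusted p = 1.4e-07). In FIBCL both were lower than in SCDM/FGF, at -2.94 ± 0.13 for Spry1 (adjusted p = 1.86e-09) and -2.41 ± 0.09 for Spry2 (adjusted p = 8.32e-10). Against SCDM, Spry1 was lower in FIBCL, with a difference of -1.05 ± 0.13 (adjusted p = 1.32e-05), which was -0.98 without SCDM replicate 3 and -0.94 without FIBCL replicate 3, and the value for Spry2 was -0.87 ± 0.09 (adjusted p = 5.59e-06).

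Spry3 ran the other way in FIBCL. It was at 0.41, 0.57 and 0.37 TPM in the spheres, 0.11, 0.15 and 0.16 TPM in SCDM, 1.28, 1.72 and 1.77 TPM in SCDM/FGF and 3.78, 4.23 and 3.95 TPM in FIBCL, with FIBCL above SCDM/FGF, SCDM/FGF above the spheres and SCDM lowest, all without overlap. Spry3 rose with bFGF by 1.19 ± 0.11 (adjusted p = 5.26e-06), was higher in FIBCL than in SCDM by 2.40 ± 0.11 (adjusted p = 3.74e-09), and was higher in FIBCL than in SCDM/FGF by 1.21 ± 0.11 (adjusted p = 1.59e-06), the last being 0.95 without rescaling.

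Spred proteins, relatives of the Sproutys, hold back RAF activation together with neurofibromin. Spred1 was at 50.7, 46.2 and 52.4 TPM in the spheres, 28.6, 29.8 and 27.8 TPM in SCDM, 68.4, 64.4 and 68 TPM in SCDM/FGF and 24, 21.3 and 20.3 TPM in FIBCL. SCDM/FGF was highest, then the spheres, SCDM and FIBCL, with no overlap, but after rescaling SCDM and FIBCL overlapped. Spred1 rose with bFGF by 1.27 ± 0.05 (adjusted p = 4.41e-09) and was lower in FIBCL than in SCDM/FGF, at -1.27 ± 0.05 (adjusted p = 1.08e-09), while against SCDM the value was 0.00 ± 0.05 (adjusted p = 0.938). Spred3 was at 10.8, 7.17 and 9.52 TPM in the spheres, 5.15, 5.04 and 3.45 TPM in SCDM, 15.5, 12.3 and 13.3 TPM in SCDM/FGF and 14.6, 13.6 and 12.7 TPM in FIBCL. SCDM lay below the other groups, and SCDM/FGF and FIBCL overlapped, with FIBCL above SCDM/FGF after rescaling. It rose with bFGF by 1.48 ± 0.14 (adjusted p = 7.24e-06) and exceeded SCDM in FIBCL by 1.78 ± 0.14 (adjusted p = 4.79e-07). Spred2 ranged from 14.3 to 30.3 TPM over the 12 libraries and was called in no comparison.

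The 3 phosphatases act on MAP kinases, Dusp6 in the cytoplasm and Dusp4 and Dusp5 in the nucleus. Dusp6 (chr10:99263231-99267489, + strand), the phosphatase most often used as an FGF reporter gene, was at 94.5, 97.3 and 101 TPM in the spheres, 33.7, 29.4 and 32.8 TPM in SCDM, 194, 166 and 176 TPM in SCDM/FGF and 121, 119 and 96.8 TPM in FIBCL. SCDM was lowest and SCDM/FGF highest, and both stood clear of the spheres and FIBCL, which overlapped, with FIBCL above the spheres after rescaling. Dusp6 rose with bFGF by 2.53 ± 0.07 (adjusted p = 3.6e-10) and exceeded SCDM in FIBCL by 2.17 ± 0.07 (adjusted p = 2.23e-10). It was lower in SCDM than in the spheres, at -1.44 ± 0.07 (adjusted p = 2.7e-08), and higher in SCDM/FGF than in the spheres by 1.09 ± 0.07 (adjusted p = 2.82e-07), or 0.86 without rescaling.

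Dusp4 was at 23.1, 22.8 and 23.6 TPM in the spheres, 4.64, 5.13 and 4 TPM in SCDM, 20.7, 18.1 and 20.03 TPM in SCDM/FGF and 75.9, 75.1 and 70.2 TPM in FIBCL. FIBCL was highest and SCDM lowest, and the spheres lay just above SCDM/FGF, which they overlapped after rescaling. With bFGF, Dusp4 rose by 1.96 ± 0.07 (adjusted p = 2.1e-09). In FIBCL it exceeded SCDM by 4.13 ± 0.07 (adjusted p = 1.34e-12) and SCDM/FGF by 2.17 ± 0.07 (adjusted p = 1.96e-10). Dusp5, which is specific for ERK, was at 7.16, 6.91 and 7.69 TPM in the spheres, 13, 11.1 and 13.3 TPM in SCDM, 26, 26.4 and 22.5 TPM in SCDM/FGF and 10.4, 9.71 and 9.42 TPM in FIBCL. SCDM/FGF was highest and the spheres lowest, and SCDM lay above FIBCL, but after rescaling SCDM and FIBCL overlapped. Dusp5 rose with bFGF by 1.03 ± 0.08 (adjusted p = 1.24e-06), a value that was 0.95 without SCDM replicate 2, 0.98 without SCDM/FGF replicate 2 and 0.95 without rescaling. SCDM/FGF exceeded the spheres by 1.85 ± 0.08 (adjusted p = 1.01e-08), and FIBCL differed from SCDM by 0.06 ± 0.08 (adjusted p = 0.53).

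The Dusp6 promoter is shown as that of a feedback gene with a match to AGGAAG, the letters of the PEA3 motif of Etv4 and its relatives, searched on both strands. It is the 250 bases before the RefSeq start site (GRCm38.p6, chr10:99262981-99263230, + strand), 5′ to 3′, with the match, here on the reverse strand, in capitals. The 9 feedback genes that had a window held 11 between them, and AGGAAG lay in 4 of the 11 (of Dusp5, Dusp6, Etv1 and Spred2), beside 29.5% of all 32851 windows. CCGGAA, a further ETS core that shares the letters GGAA with it, lay in 0 of the 11 and in 12% of all windows, TGACGTCA, the cAMP response element, in 0 and 1.55%, its first 5 letters TGACG in 2 and 17.8%, and TGANTCA, the AP-1 site, in 0 and 6.75%. These matches describe letters in a window and are neither sites nor causes.
Dusp6: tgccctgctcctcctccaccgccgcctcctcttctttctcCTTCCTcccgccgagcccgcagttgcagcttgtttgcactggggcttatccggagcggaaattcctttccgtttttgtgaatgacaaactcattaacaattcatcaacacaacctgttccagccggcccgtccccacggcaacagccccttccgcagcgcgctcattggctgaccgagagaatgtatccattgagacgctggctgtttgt

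The ETS factors Etv1, Etv4 and Etv5 are the transcriptional end of the pathway. Etv4 was at 22.5, 17.3 and 19 TPM in the spheres, 8.49, 6.25 and 6.28 TPM in SCDM, 29.6, 34.9 and 36 TPM in SCDM/FGF and 30.9, 25.9 and 26.1 TPM in FIBCL. SCDM was lowest, and SCDM/FGF and FIBCL overlapped. It rose with bFGF by 2.19 ± 0.13 (adjusted p = 1.15e-07) and exceeded SCDM in FIBCL by 2.22 ± 0.13 (adjusted p = 2.58e-08), and it was lower in SCDM than in the spheres, at -1.22 ± 0.13 (adjusted p = 1.18e-05). Etv5 was at 33.3, 29.5 and 31.8 TPM in the spheres, 17, 16.9 and 16.4 TPM in SCDM, 41.6, 40.6 and 39.1 TPM in SCDM/FGF and 46, 44.5 and 41.5 TPM in FIBCL. SCDM lay below the spheres, and the spheres below SCDM/FGF and FIBCL. Etv5 rose with bFGF by 1.30 ± 0.04 (adjusted p = 1.17e-09) and was higher in FIBCL than in SCDM by 1.73 ± 0.04 (adjusted p = 2.31e-11).

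Etv1 was at 26.4, 23.5 and 28.9 TPM in the spheres, 12.6, 14.2 and 14.3 TPM in SCDM, 41.8, 33.5 and 33.8 TPM in SCDM/FGF and 18.4, 19.1 and 18.4 TPM in FIBCL. All 4 groups were apart, with SCDM lowest, then FIBCL, the spheres and SCDM/FGF, but after rescaling FIBCL and the spheres overlapped. Etv1 rose with bFGF by 1.42 ± 0.09 (adjusted p = 1.28e-07), while in FIBCL the difference from SCDM was 0.80 ± 0.09 (adjusted p = 5.19e-06), under the size limit.

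Against the spheres the feedback genes differed by medium. In SCDM, 0 of the 13 were higher and 4 lower (Spry4, Dusp4, Dusp6 and Etv4, median -0.73), where 6.94% and 5.46% of all genes were called. By adjusted p alone 12 of the 13 were lower, as were 4136 of all 16016 genes tested (50.3% differed in either direction). In SCDM/FGF, 3 were higher (Spry1, Dusp5 and Dusp6) and 0 lower, with a median of 0.67, beside 7.39% and 4.73% of all genes. In FIBCL, 5 were higher (Spry3, Spred3, Dusp4, Etv4 and Etv5) and 3 lower (Spry1, Spry2 and Spry4), with a median of 0.73, beside 12.5% and 15.5% of all genes. For Etv4, Etv5 and Spred3 the FIBCL differences were 1.00, 1.00 and 1.04, and 0.48, 0.47 and 0.54 without rescaling. Those of Etv4 and Etv5 went under 1 without sphere replicate 2 (0.94 and 0.97), sphere replicate 3 (0.97 and 0.998) or FIBCL replicate 1 (0.95 and 0.998), and that of Spred3 without sphere replicate 2 (0.91).

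Transcript levels, and not signalling, were measured for 25 genes of the RAS-MAPK cascade and its regulators, all of them tested. None of the 25 was called in SCDM/FGF against SCDM, where 9.77% of all genes were, and by adjusted p alone 8 were higher and 6 lower, where 43.1% of all genes differed in either direction. In FIBCL against SCDM, 0 were higher and 2 lower, the adaptors Shc1 (-1.66) and Gab1 (-1.46), where 29.3% of all genes were called. Of 24 other genes known to respond to ERK, 8 rose and 0 fell with bFGF, where 5.73% and 4.04% of all genes did, led by Fosl1 (3.31), Plaur (2.45), Phlda1 (2.22) and Ier3 (1.74), and their median log2 difference was 0.46, beside -0.02 for all genes. In FIBCL against SCDM, 9 rose and 4 fell, where 13.2% and 16.2% of all genes did, and the widest differences were those of the phosphatases Dusp2 (4.45) and Dusp1 (3.73), of Ier3 (2.94) and of Myc (-2.94), with a median of 0.54, beside -0.07 for all genes.

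FGFs need heparan sulfate to form a stable complex with their receptors. The counts that follow stand beside 5.73% of all genes higher and 4.04% lower with bFGF, and 13.2% higher and 16.2% lower in FIBCL against SCDM. Of 23 genes of heparan sulfate synthesis and editing, 20 were tested, and with bFGF 2 rose (the heparanase Hpse, 1.45, and Ndst3, 1.36) and 2 fell (the sulfotransferase Hs6st2, -2.13, and Extl1, -1.76). In FIBCL against SCDM, 5 of the 20 rose and 3 fell, with Sulf1, a sulfatase that trims the chains, at -3.70, Hs3st6 at 3.39, Hs6st2 at -2.72 and Hs3st1 at 2.15. Of 12 heparan sulfate proteoglycans, 11 were tested, and with bFGF the syndecan Sdc4 (1.34) and the glypican Gpc3 (1.18) rose and Sdc2 (-1.42) fell. In FIBCL against SCDM, 1 of the 11 rose (Gpc2, 1.63) and 5 fell, among them Sdc2 (-1.98), Gpc6 (-1.84) and Hspg2 (-1.51). Of 7 other receptor partners, 5 were tested, and with bFGF the adhesion molecules Ncam1 (-1.85) and L1cam (-1.70) fell and Flrt2 (1.30) rose, while in FIBCL against SCDM 1 of the 5 rose and 1 fell.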

How the data were processed

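The 12 RNA-seq libraries fell into 4 groups of 3 by their sample labels. The columns named FIBC in the table were taken as FIBCL, since the labels hold no group FIBC, a name the study also gives to the mixture without LIF. The authors prepared poly(A) libraries, and their methods name SeqPrep and Sickle for trimming, TopHat for alignment and RSEM for gene abundances. The submitters' processing notes also name Cufflinks. The authors deposited TPM with 2 decimals. The aligned genome build is not given in the sources used here. TPM keeps no read counts, so depth is unknown and no counting interval was computed.

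A gene was kept when 3 or more libraries reached 1 TPM. To make libraries comparable, log2 ratios to their average were taken for the 8434 genes that had 5 TPM or more throughout, and the mean of the ratios, after removal of the upper and lower 30%, set the scale factor. It multiplied FIBCL by a mean of 1.25 and the spheres by 0.854. Values were log2(scaled TPM + 1). One limma model (3.58.1, R 4.3.3) with a mean-variance trend and no covariate covered the 4 groups, with Benjamini-Hochberg adjustment within each of 6 comparisons. A call needed an adjusted p under 0.05 and a log2 difference of at least 1 in size. A check of the model on simulated data used normal noise and changes larger than the limit of 1, in genes of higher level. It does not bear on calls near that limit or on genes near 1 TPM. Every FGF gene called in a comparison, and every ligand and receptor with a group mean of at least 1 TPM, was described library by library, and at most 4 genes of each pathway list were named, those with the largest called differences. The members, the gene lists and the tests were chosen with earlier results of these data known.

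Positions came from GENCODE M21 (GRCm38), where 44 of the 45 genes were found. Promoter windows came from RefSeq (GRCm38.p6), which had one for 34 of the 45. Alternatives changed the scaling, pseudocount, filter, threshold, model and samples. Figures were drawn with matplotlib 3.10.9 and tables with pandas 2.3.3 in Python 3.11.15.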

Additional observations from a re-analysis of the deposited data

How the results depend on the processing

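Of the 84 calls, over 27 genes, 0 turned direction under any alternative and 45 stood under all of them. Values as deposited lost 12 calls, scaling by the median in place of the trimmed mean lost 2 (Etv4 and Etv5, FIBCL against the spheres), and a log2 limit of 1.5 lost 39, all with an adjusted p still under 0.05. Pseudocounts of 0.1 and 0.5, a filter at 0.5 TPM or none, a model of the 2 compared groups alone and a variance prior without the trend lost 0. In the order SCDM/FGF against SCDM, FIBCL against SCDM, FIBCL against SCDM/FGF, then SCDM, SCDM/FGF and FIBCL against the spheres, 19, 14, 15, 11, 8 and 17 of the 33 genes were called. With the limit at 1.5 the counts were 8 for SCDM/FGF against SCDM, 8 for FIBCL against SCDM/FGF, and 5, 5 and 8 against the spheres. By adjusted p alone they were 23 for FIBCL against SCDM, 28 for FIBCL against SCDM/FGF, and 29, 24 and 27 against the spheres, where 71.7%, 70.7%, 50.3%, 50.4% and 71.6% of all genes passed. With 1 library left out, the counts ranged over 16 to 19, 13 to 14, 15 to 17, 11 to 12, 7 to 9 and 14 to 17, and 10 calls went under a log2 difference of 1. Without rescaling, the median of all genes was -0.40 for FIBCL against SCDM, -0.31 for FIBCL against SCDM/FGF, and -0.13, -0.22 and -0.51 for SCDM, SCDM/FGF and FIBCL against the spheres, and in FIBCL the genes called were 1490 higher and 3726 lower, in place of 2107 and 2588, against SCDM, 1409 and 3303, in place of 1927 and 2532, against SCDM/FGF, and 1260 and 4313, in place of 2009 and 2487, against the spheres. For SCDM/FGF against the spheres they were 980 and 1110 in place of 1184 and 758.

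With the replicate number as a block the counts were again 19, 14, 15, 11, 8 and 17. Libraries that shared a number did not deviate together (r from -0.12 to 0.098 over 18 pairs), so the number was taken as a name and not as a pairing. The missing read counts limit what can be said of genes under 1 TPM.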
